A study of Mus musculus with 79 samples.

Results

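The data described here are 1 deposited comparison, PER2 MKO against PER2 CTRL mouse muscle at zeitgeber time (ZT) 12, that is 12 h after lights on. The labels give 4 MKO and 3 CTRL libraries at ZT12, among 79 libraries in the series and 43 in its PER2 set. MKO is a muscle-specific knockout of PER2, and the labels give the genotype of CTRL as WT. The other 5 PER2 comparisons, at ZT0, ZT4, ZT8, ZT16 and ZT20, have 4 MKO and 3 or 4 CTRL libraries each, and serve to show where ZT12 differs. Every gene in the authors' table was taken, 12952 genes, and the same 12952 stand in the other 5 tables. Each library came from its own mouse by the design text, so each ZT has its own mice and no controls are shared between ZT. The Cre driver, the exon removed, the age and sex of the mice and which muscle was sampled are not given in the labels. Values per library were not analysed here, so the depth and the spread between mice are known only through the authors' test. Whether that test took its spread from the ZT12 mice alone or from more of the PER2 set is not stated in the sources used here. The error derived from it, given below after each ±, had a median over genes of 0.137 at ZT12 and 0.125 to 0.137 elsewhere. For Acadm, as an example, it was 0.142 at ZT12 and 0.131 to 0.142 elsewhere. Such near-equal errors are those of a spread shared over the PER2 set. None is therefore read as the spread of the ZT12 mice alone. The deposited tables do not state which genotype is over which. For that reason every value keeps the sign it was deposited with, and none is read as higher or lower in the knockout.

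PER2 is a core protein of the circadian clock. With its partners PER1, CRY1 and CRY2 it represses the activator pair CLOCK and BMAL1, which binds E-boxes in DNA and drives, among others, the Per and Cry genes, so that the loop closes on itself each day. Another loop runs through ROR activators and REV-ERB repressors acting on Arntl, the gene of BMAL1, and output factors such as DBP, TEF and HLF carry the rhythm to other genes. In muscle the clock is known to time fuel use and parts of the programme of protein turnover, and in the usual light cycle ZT12 is the change from light to dark, when mice become active.

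The tissue matched its label. All 14 of 14 skeletal muscle fibre markers were measured, at mean levels of 6.23 to 16.07 log2 CPM (counts scaled to library size) over the PER2 set. Fast myosin Myh4 was the highest of these at 16.07, with skeletal actin Acta1 at 14.50 and muscle creatine kinase Ckm at 13.90. None of the 14 was called at ZT12, where called means a deposited adjusted p under 0.05 throughout. Their deposited log2 fold changes ran from -0.45 for Ckm to 0.33 for Myh4, with a median of -0.06.

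The targeted gene was examined first. Per2 had a deposited log2 fold change of 0.70 ± 0.22 at ZT12 (adjusted p = 0.0418), a factor of 1.62. The error after each ± was derived as the absolute log2 value divided by the square root of the deposited likelihood ratio. In the authors' deposited tables Per2 stood at -0.16 at ZT0, 0.46 at ZT4, 0.51 at ZT8, 0.38 at ZT16 and 0.31 at ZT20, and ZT12 was its only called ZT. ZT12 lay above the other 5, but its difference from their weighted mean, 0.39 ± 0.24, did not pass the test described below (adjusted p = 0.855). A gene-level value can hold transcript that lacks the removed exon, and the direction is not stated, so Per2 does not check the labels here.

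At ZT12 the authors' deposited table called 432 of 12952 genes, or 3.34%. Of these, 258 had a positive fold change (1.99% of all genes) and 174 a negative one (1.34%). Most differences were small. The median size was 0.54 on the log2 scale among called genes, against 0.14 over all genes. Only 84 called genes reached a size of 1, which is a factor of 2, and they split evenly, 42 positive and 42 negative. Over all genes the median fold change was -0.02. Setting that median to 0 gave 356 positive and 147 negative calls, so the split between directions leans further to the positive side under that scaling.

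**Figure D1:**
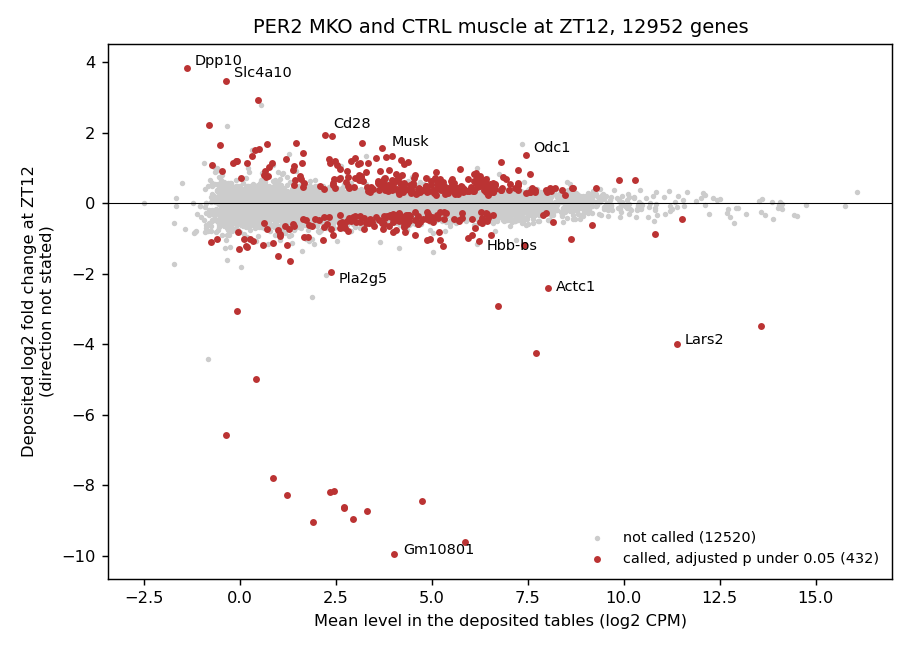
Deposited log2 fold change at ZT12 (y axis, direction not stated) against the mean level of each gene in log2 CPM (x axis), 1 point per gene, with the 432 called genes in red. Most called genes lie within 1 of the zero line, with Lars2 at -4.00, and the group near Gm10801 (-9.96) far below it.

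The positive fold changes of largest size, among called genes with a log2 CPM of at least 0 and an established (not predicted) symbol, began with Cd28, a co-stimulatory receptor of T cells (1.94 ± 0.35, adjusted p = 1.06e-05). In the same table followed Tpx2, a spindle assembly factor (1.92 ± 0.28), Npnt, the matrix protein nephronectin (1.70 ± 0.28), and Otog, a matrix protein known from the inner ear (1.67 ± 0.46). Musk encodes the receptor kinase that organises the neuromuscular junction and stood at 1.56 ± 0.23. Next came the nuclease gene Dnase1 (1.43), Odc1 of polyamine synthesis (1.36), the LIM-domain gene Crip3 (1.34) and Polk, a DNA polymerase that copies past damaged bases (1.34). The integrin subunit Itga4 (1.32), the receptor subunit Neto2 (1.28) and the serine protease Htra4 (1.28) completed the 12. Crip3 stands out among them, at 0.48, 0.01, 0.26, 0.47 and 0.18 at ZT0, ZT4, ZT8, ZT16 and ZT20, called at ZT12 alone.

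On the negative side, under the same limits, Lars2 led (-4.00 ± 1.11, adjusted p = 0.0163), the mitochondrial leucyl-tRNA synthetase. It was followed in the deposited table by the cardiac and embryonic actin gene Actc1 (-2.40 ± 0.48), the secreted phospholipase gene Pla2g5 (-1.95 ± 0.37), Tmem45b (-1.64 ± 0.23) and Frmpd1 (-1.50 ± 0.28). Ppp1r1a, an inhibitor of protein phosphatase 1, stood at -1.21, and Ngfr, the low-affinity neurotrophin receptor, at -1.21. Gpx3, the secreted glutathione peroxidase, stood at -1.19, ahead of the NMDA receptor subunit Grin3b (-1.18) and Fam174b (-1.18). The pacemaker channel gene Hcn4 (-1.14) and the beta-globin gene Hbb-bs (-1.07) came last of the 12.

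Of these 24 genes, 22 were also called at 1 or more other ZT, and 19 had the same sign in all 6 tables. ZT12 held the largest size for 10 of the 24. Actc1 shows the usual pattern, at -1.26 at ZT0, -2.23 at ZT4, -2.18 at ZT8, -1.88 at ZT16 and -1.99 at ZT20, so that its ZT12 value lies within its error of 3 of the other 5. The genes were picked for their size at ZT12, so their nearness to or distance from the other ZT is a description.

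**Figure D2:**
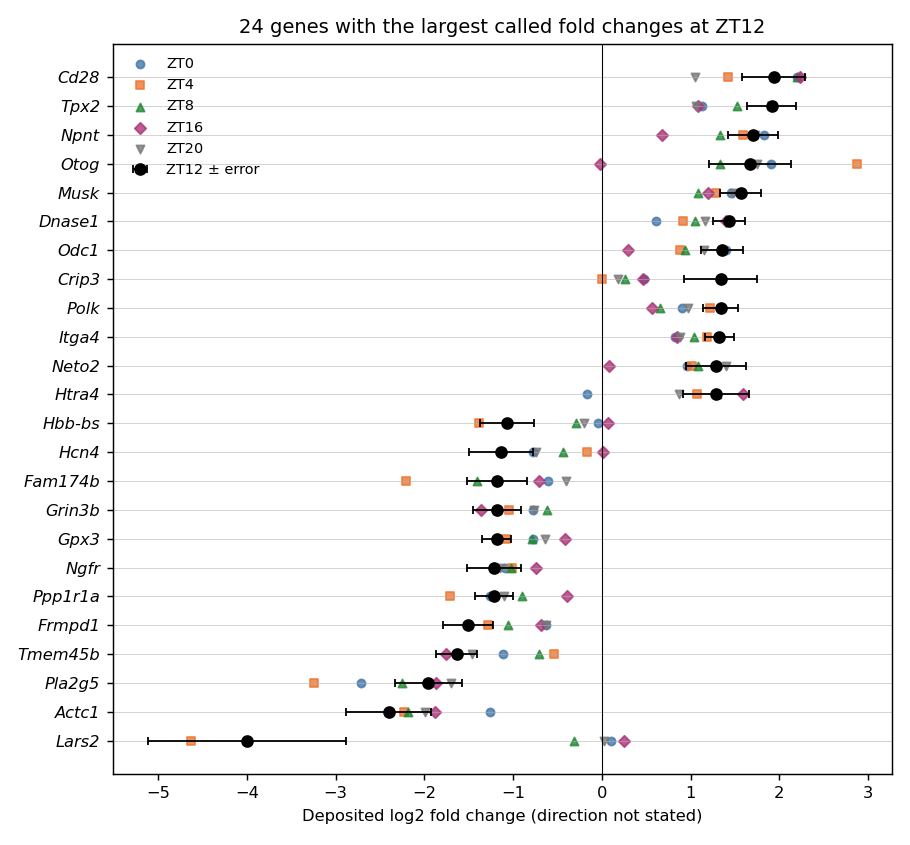
Deposited log2 fold changes (x axis, direction not stated) of the 12 most positive and 12 most negative called genes at ZT12. Black points with bars are ZT12 ± its derived error and coloured marks are the other 5 ZT, which cluster around ZT12 for Actc1 and Musk but not for Lars2, where only ZT4 (-4.63) is near.

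Lars2 was called at 1 other ZT only. In the authors' deposited tables it stood at -4.63 at ZT4 (adjusted p = 0.00253), and at 0.11, -0.32, 0.25 and 0.03 at ZT0, ZT8, ZT16 and ZT20. Its derived error at ZT12, 1.11, was far above the median error of all genes at that ZT (0.14). That error was wide at every ZT, from 0.87 at ZT20 to 1.15 at ZT4, and is not particular to ZT12. The 4 genes Gm26924, Gm26917, AA474408 and Gm20594, singled out after their values were seen, went with it. Gm26924 stood at -3.48 at ZT12 and -3.98 at ZT4, Gm26917 at -5.00 and -5.54, AA474408 at -4.24 and -4.89, and Gm20594 at -2.92 and -3.16. Each of the 4 lay between -0.27 and 0.41 at the remaining ZT. How many of the libraries carry these values was not analysed here.

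Some clock genes were called at ZT12, where the share called over all genes was 3.34%. Of 8 genes listed as activators of the clock or as cycling with Bmal1, 6 were measured, of which 2 were called, both positive, and 4 were not called. Gm129, 1 of the 6, is listed with the clock repressors and output genes as well, and was not called (-0.12 ± 0.23). Clock, the partner of BMAL1, stood at 0.43 ± 0.14 (adjusted p = 0.0455), and Rora, which activates Arntl, at 0.37 ± 0.11 (adjusted p = 0.0397). Clock was called at ZT4 as well (0.41, adjusted p = 0.0247) and stood at 0.06 to 0.20 elsewhere. At ZT4 this list had 3 calls and a median of 0.31, against 0.05 at ZT12, with 12.2% of all genes called at ZT4. Arntl itself was not called (-0.34 ± 0.18, adjusted p = 0.315). It lay below all 5 other ZT, which ran from -0.06 at ZT0 to 0.49 at ZT4 in the deposited tables.

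Of 17 measured clock repressors and output genes, only Per2 and Hlf were called, both positive. Hlf, an output factor of the PAR bZIP family, stood at 0.41 ± 0.12 (adjusted p = 0.022) and at -0.16 to 0.31 at the other ZT. Its relatives Dbp (0.10 ± 0.22) and Tef (-0.04 ± 0.09) were not called. Per1 at -0.26 ± 0.28, Per3 at -0.07 ± 0.19 and Cry2 at 0.14 ± 0.13 were not called either. Cry1, a repressor too but counted above with the genes cycling with Bmal1, was not called (0.10 ± 0.09). Of the REV-ERB genes, Nr1d1 stood at -0.05 ± 0.18 at ZT12, between -0.91 at ZT20 and 0.50 at ZT4, and Nr1d2 at 0.34 ± 0.14. The medians of the clock lists, 0.05 and 0.01, both with Gm129 among their members, stood beside -0.02 for all genes. Once the trend of fold change with transcript length and GC content described below was removed, Clock (adjusted p = 0.566), Rora (adjusted p = 0.672) and Hlf (adjusted p = 0.209) were no longer called, while Per2 was (adjusted p = 0.0493).

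**Figure D3:**
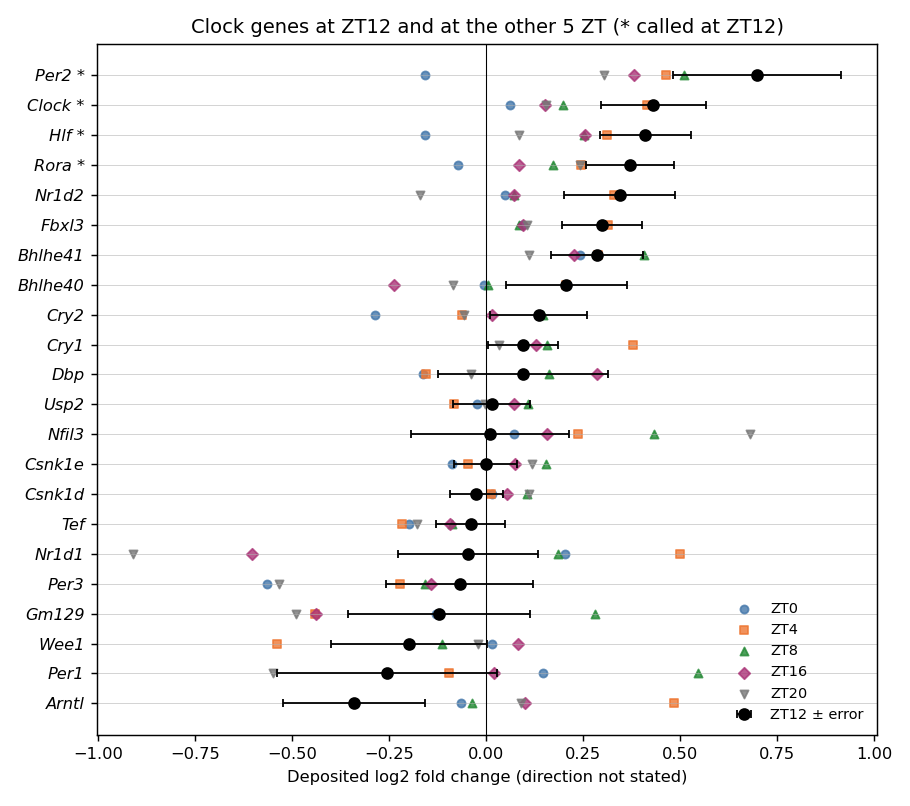
Deposited log2 fold changes (x axis, direction not stated) of the clock genes, ordered by their ZT12 value. Black points with bars are ZT12 ± its derived error, coloured marks are the other 5 ZT, and an asterisk marks the 4 genes called at ZT12, from 0.37 for Rora to 0.70 for Per2.

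The 3 genes Odc1, Amd1 and Sms of polyamine synthesis were called positive at ZT12. Polyamines are small cations that growing and regenerating cells make from ornithine and decarboxylated S-adenosylmethionine. Of 10 measured genes of polyamine synthesis and breakdown, 3 were called, all positive, against 1.99% called positive over all genes, and 7 were not, with a list median of 0.24. Odc1, ornithine decarboxylase and the first committed step, stood at 1.36 ± 0.24 (adjusted p = 3.81e-06). Amd1, which makes decarboxylated S-adenosylmethionine, stood at 0.65 ± 0.17 (adjusted p = 0.00793), and Sms, spermine synthase, at 0.51 ± 0.13 (adjusted p = 0.00662). All 3 had positive fold changes at the other ZT too. Odc1 stood at 1.40, 0.88, 0.94, 0.29 and 1.15 at ZT0, ZT4, ZT8, ZT16 and ZT20 in the deposited tables and was called at 5 ZT, Amd1 at 2 and Sms at 4. Spermidine synthase Srm (-0.37 ± 0.16) and the spermine oxidase Smox (0.59 ± 0.23) were not called. Amd1 and Odc1 have near-identical copies in the mouse genome, between which reads may be split.

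Because these 3 genes of 1 pathway were called together, the 250 bases before their RefSeq transcript starts (GRCm38.p6) are shown, with those of Hlf as the called clock output gene. Letters in capitals mark CACGTG, the E-box of CLOCK and BMAL1, or AGGTCA, the core site of ROR and REV-ERB receptors, on either strand. Sms has another RefSeq start, not shown, whose 250 bases hold neither motif.
Odc1, chr12:17544623-17544872, plus strand: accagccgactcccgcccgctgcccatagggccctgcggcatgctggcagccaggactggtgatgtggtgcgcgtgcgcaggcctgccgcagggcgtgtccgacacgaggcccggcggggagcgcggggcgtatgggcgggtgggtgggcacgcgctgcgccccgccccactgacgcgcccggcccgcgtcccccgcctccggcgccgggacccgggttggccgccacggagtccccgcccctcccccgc
Amd1, chr10:40302189-40302438, minus strand: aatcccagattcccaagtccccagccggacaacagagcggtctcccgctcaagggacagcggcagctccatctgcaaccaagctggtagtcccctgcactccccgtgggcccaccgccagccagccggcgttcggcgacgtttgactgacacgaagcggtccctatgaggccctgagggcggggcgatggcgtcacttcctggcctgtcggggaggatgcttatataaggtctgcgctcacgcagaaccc
Sms, chrX:157492288-157492537, minus strand: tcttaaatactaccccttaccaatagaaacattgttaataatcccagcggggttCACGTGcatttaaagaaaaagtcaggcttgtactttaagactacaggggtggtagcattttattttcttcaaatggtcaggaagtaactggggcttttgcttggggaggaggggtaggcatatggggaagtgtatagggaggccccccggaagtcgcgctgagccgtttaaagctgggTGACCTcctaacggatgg
Hlf, chr11:90390918-90391167, minus strand: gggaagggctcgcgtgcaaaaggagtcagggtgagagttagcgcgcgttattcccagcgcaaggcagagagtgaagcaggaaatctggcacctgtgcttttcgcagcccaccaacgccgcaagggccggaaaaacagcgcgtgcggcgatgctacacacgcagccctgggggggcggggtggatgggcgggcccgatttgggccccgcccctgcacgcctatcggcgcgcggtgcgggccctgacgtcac
Only the Sms stretch holds either motif, with 1 CACGTG and, read on the other strand as TGACCT, 1 AGGTCA. Over windows from 250 bases before to 50 after the start, CACGTG on either strand was in 14.2% of 204 genes called positive that had a promoter entry, and in 12.3% of 130 called negative. The share was 11.9% of 9983 tested genes and 8.75% of 80 genes called at ZT12 alone. AGGTCA was in 15.2% of the positive, 12.3% of the negative and 15% of all. The D-box letters TTATGTAA or TTACGTAA were in 0 promoters of either called group and in 0.861% of all. These shares lie near those of all promoters, and a match in this window is a description of letters only.

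Regulators of muscle mass were among the called genes. Mstn encodes myostatin, the secreted brake on muscle growth, and stood at 0.76 ± 0.14 (adjusted p = 1.28e-05), above all 5 other ZT, which ran from 0.22 to 0.73. Gdf11, its close relative, stood at 0.80 ± 0.19 and was called at 4 ZT. Il15, a cytokine made by muscle, was negative at -0.90 ± 0.22 (adjusted p = 0.00329). These are the 3 of 13 measured myostatin and muscle-secreted factors that were called, against 3.34% of all genes, and the list median was -0.10. At ZT0, ZT4, ZT8, ZT16 and ZT20 the list had 2, 7, 4, 0 and 2 calls. The shares of all genes called there were 2.7%, 12.2%, 1.78%, 0.811% and 1.52%. Among 20 genes of muscle protein breakdown Mstn was the single call, and the median was -0.13. Of the 20, 16 had a negative sign, against 7043 of 12952 over all genes. The ubiquitin ligase genes of atrophy, Trim63 (-0.30 ± 0.10, adjusted p = 0.0651) and Fbxo32 (-0.45 ± 0.20, adjusted p = 0.217), were not called.

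At the neuromuscular junction, Musk was the single call among 14 measured genes. Beside its 1.56 at ZT12, the deposited tables gave 1.45 (ZT0), 1.29 (ZT4), 1.08 (ZT8), 1.19 (ZT16) and 1.48 (ZT20), a narrow range with a call at all 6. Its co-receptor Lrp4 (0.33 ± 0.16) and the acetylcholine receptor subunits Chrna1 (-0.31 ± 0.15) and Chrne (-0.26 ± 0.16) were not called. Among 19 myogenic and muscle development genes Actc1 was the single call, and myogenin, Myog, stood at 0.23 ± 0.30. In excitation-contraction coupling, 1 of 20 was called, 2310015B20Rik, the gene of the SERCA regulator myoregulin (0.56 ± 0.15, adjusted p = 0.0153). Each of these lists held 1 call, where 3.34% of all genes were called.

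Genes of energy metabolism leaned to the negative side at ZT12. Over all 12952 genes, 7043 had a negative fold change and 3.34% were called. Of 25 nuclear-encoded genes of oxidative phosphorylation, 25 had a negative fold change at ZT12 and 1 was called, Ndufv1 of complex I (-0.28 ± 0.09, adjusted p = 0.0474). Their values ran from -0.64 ± 0.26 for Cox8b, a muscle subunit of complex IV, to -0.01 ± 0.10 for Sdha of complex II, with a median of -0.28 against -0.02 for all genes. Among 22 genes of fatty acid oxidation 0 were called, 21 were negative and the median was -0.21. Eci1, an enoyl-CoA isomerase, had the smallest p (-0.47 ± 0.15, adjusted p = 0.0537). In lipid uptake and storage 1 of 18 was called, Plin3, a coat protein of lipid droplets (-1.04 ± 0.21, adjusted p = 0.000164), with a median of -0.27. These 3 lists were negative at ZT4 as well, with medians of -0.34, -0.30 and -0.28. There 13, 8 and 7 members were called, against 12.2% of all genes.

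Pcx, pyruvate carboxylase, which refills the tricarboxylic acid cycle, went the other way (0.49 ± 0.13, adjusted p = 0.00726) as the single call of 20 in that list, where 17 were negative. Nrip1, a nuclear receptor corepressor of oxidative genes, was positive at 0.71 ± 0.17 (adjusted p = 0.00263). It was the single call of 14 regulators of the PPAR, ERR and PGC-1 group. Thrsp, a gene of lipid synthesis, was negative (-0.73 ± 0.20, adjusted p = 0.0145), as were the tropomyosin gene Tpm2 (-0.45 ± 0.14, adjusted p = 0.041) and the lysosomal protease gene Ctsb (-0.33 ± 0.07, adjusted p = 0.000815). Each was the single call of its list, of 18 genes of sterol and fatty acid synthesis, 14 of the fast fibre sarcomere and 17 of autophagy and lysosome. Over all genes 3.34% were called. Of 24 cytosolic ribosomal protein genes 0 were called and 24 were negative, with a median of -0.27. Ribosomal protein genes have many processed copies that can take part of their reads.

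Transcript length and base composition moved with these lists. Across 12239 genes with a log2 CPM of at least 0, Spearman's rho of the ZT12 fold change was 0.441 with transcript length and -0.439 with GC content. At ZT4 the values were 0.519 and -0.35, and at ZT0, ZT8, ZT16 and ZT20 rho with length was -0.236, -0.0558, 0.017 and 0.0868. These describe genes, which are not independent replicates. The shortest of 10 equal groups of transcripts had a median fold change of -0.23 at ZT12 and the longest group 0.13. The calls followed, with 7 positive and 32 negative in the shortest group and 68 positive and 3 negative in the longest. The median transcript of the ribosomal list was 1140 bases long and that of the oxidative phosphorylation list 1697, against 3414 for all genes with a length. With a smooth trend on length and GC content removed, the medians at ZT12 became -0.08 for the ribosomal, -0.17 for the oxidative phosphorylation and -0.15 for the fatty acid oxidation list. In the same setting 266 genes were called, 183 positive and 83 negative, and 214 of the 432 kept their call. Ndufv1, Thrsp, Tpm2 and Nrip1 did not keep it (adjusted p = 0.877, 0.142, 0.409 and 0.0517), while Ctsb, Plin3, Pcx, Mstn, Musk and Odc1 did. What length and GC content contribute to the calls was not tested further.

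**Figure D4:**
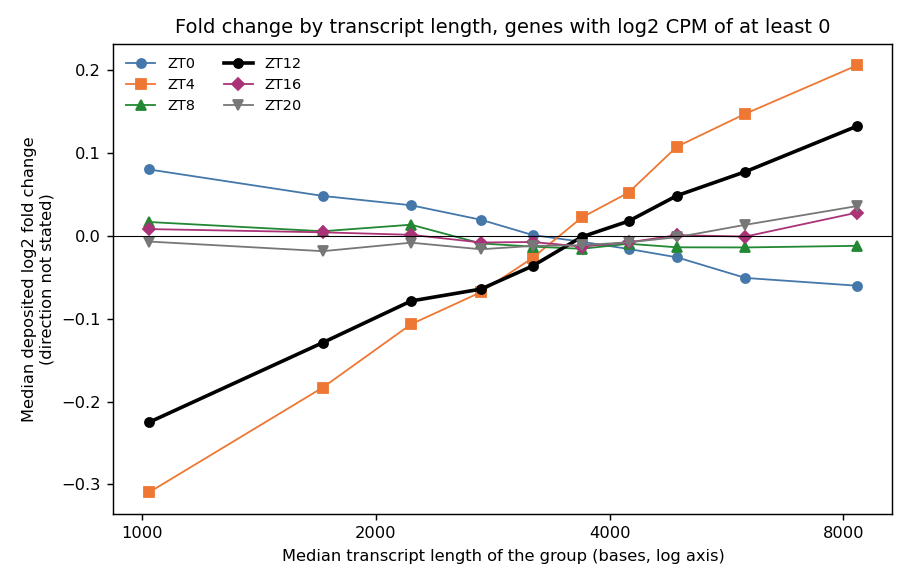
Median deposited log2 fold change (y axis, direction not stated) of genes in 10 equal groups by transcript length (x axis, bases, log scale), 1 line per ZT. ZT12 rises from -0.23 in the shortest group to 0.13 in the longest and ZT4 from -0.31 to 0.21, while the other 4 lines run between -0.06 and 0.08.

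Markers of blood and fat were negative at ZT12. In bulk tissue, fewer cells of a type and less RNA per cell cannot be told apart. Of 7 measured red blood cell markers 4 were called, all negative, against 1.34% called negative over all genes, and the median was -0.98. They were the globin genes Hba-a1 (-0.98 ± 0.27, adjusted p = 0.0145), Hba-a2 (-1.01), Hbb-bs (-1.07) and Hbb-bt (-1.06), whose near-identical pairs can share reads. The haem synthesis genes Alas2 (-0.61 ± 0.27) and Fech (-0.09 ± 0.06) were not called. Globin genes were also negative at ZT4, where Hba-a1 stood at -1.30, but near 0 elsewhere, at -0.14, -0.29, 0.07 and -0.25. Globin transcripts are short, and with the trend on length and GC content removed none of the 4 was called, Hba-a1 standing at -0.66, while Fech gained a call (-0.20, adjusted p = 0.0413).

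The 8 white adipocyte markers all had negative fold changes, with a median of -0.70, but 0 were called. Leptin, Lep, stood at -0.90 ± 0.53, adiponectin, Adipoq, at -0.72 ± 0.33 and Fabp4 at -0.27 ± 0.12. The list median at the other ZT ran from -0.42 at ZT16 to 0.33 at ZT8. Endothelial markers had a median of -0.13 with 0 of 12 called, macrophage and leukocyte markers -0.20 with 0 of 14, fibroblast markers -0.17 with 0 of 14, and satellite cell markers 0.01 with 0 of 9. Of 10 markers of T and NK cells only Cd28 was measured, so no lineage marker stands beside its call. Of 12 markers of B and plasma cells 2 were measured, Ighm (-1.03 ± 0.62) and Ighg2c (-2.65 ± 2.09), neither called. The part of these cell types in the muscle results was not tested.

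Immediate early genes, which answer within minutes to activity or handling, had a list median of -0.46 at ZT12. Of 15 measured, 13 were negative and 0 were called. Egr1 had the smallest p (-1.08 ± 0.50, adjusted p = 0.231), Fos stood at -1.01 ± 0.56 and Jun at 0.45 ± 0.22. Their errors were wide, so values near 1 did not pass. At ZT8 and ZT16 the list median was 0.43 and 0.31. Heat shock genes had a median of -0.00 with 0 of 18 called, and glucocorticoid-responsive genes -0.17 with 0 of 19. Over all lists, 28 of 537 listed genes were called (5.21%, against 3.34% of all genes), and 10 of 27 pathway lists and 13 of 15 cell type lists had no member called.

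**Figure D5:**
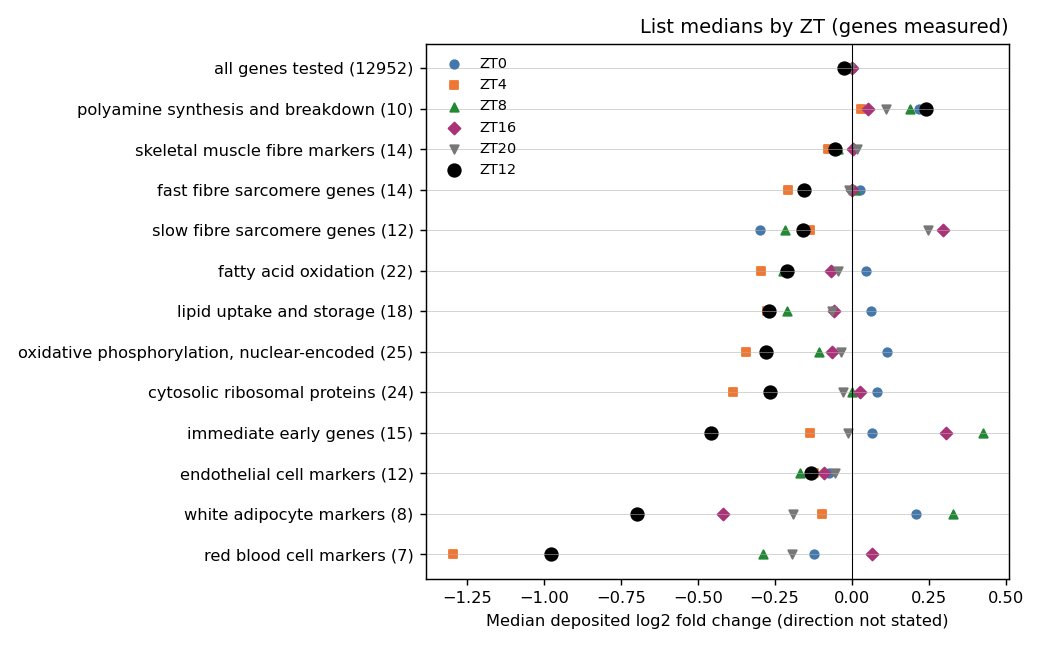
Median deposited log2 fold change (x axis, direction not stated) of gene lists at ZT12 (black) and at the other 5 ZT (coloured), with the number of genes measured beside each name. At ZT12 the red blood cell (-0.98), white adipocyte (-0.70) and immediate early (-0.46) lists lie farthest from 0 among the lists drawn, with 4 of 7, 0 of 8 and 0 of 15 members called.

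Against the other ZT, ZT12 was the comparison with the second largest number of calls. The deposited tables called 350 genes at ZT0 (2.7%), 1586 at ZT4 (12.2%), 230 at ZT8 (1.78%), 105 at ZT16 (0.811%) and 197 at ZT20 (1.52%). Of the 432 genes called at ZT12, 291 were also called at ZT4, which is 67.4% of the ZT12 calls and 18.3% of the ZT4 calls. With ZT0 it shared 134, with ZT20 119, with ZT8 114 and with ZT16 73. Every shared call had the same sign at both ZT in each of these 5 pairs. Across all genes Spearman's rho with ZT12 was 0.688 for ZT4, 0.374 for ZT20, 0.246 for ZT16, 0.243 for ZT8 and 0.09 for ZT0. Each is over 12952 genes that share libraries, length and base composition, and is given as a description.

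Most ZT12 calls had their sign at the other ZT as well. The 258 positive calls had a median of 0.53 at ZT12 and of 0.26, 0.44, 0.31, 0.26 and 0.28 at ZT0, ZT4, ZT8, ZT16 and ZT20. The 174 negative calls had a median of -0.57 at ZT12 and of -0.26, -0.51, -0.24, -0.18 and -0.24. All told, 356 of the 432 had 1 sign in all 6 tables. The genes were chosen at ZT12, which by itself favours a larger size there.

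At all 6 ZT, 44 genes were called, 25 positive and 19 negative, each with 1 sign throughout. The negative ones include 13 genes with predicted names, such as Gm10800 and Gm10801, at -6.59 to -9.96 at ZT12 and -6.79 to -12.20 at the other ZT. Predicted genes of 1 family can share reads, so they may not be 13 separate measurements. Named examples, picked after their values were seen, are Slc4a10, a bicarbonate transporter (3.47 ± 0.41), Dmd, which encodes dystrophin (0.67 ± 0.13), the amylase gene Amy1 (1.11 ± 0.17) and Pla2g5. Dmd stood between 0.52 and 0.77 at the other ZT.

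The difference of ZT12 from the inverse-variance weighted mean of the other 5 ZT was tested for every gene. With Benjamini-Hochberg adjustment over 12952 genes, 0 genes passed (0% called), and the smallest adjusted p was 0.311. At an unadjusted p under 0.05 there were 506 genes (3.91%), 244 more positive at ZT12 and 262 more negative. That count was 1070 without ZT4 and 384 to 485 without 1 of the others, and 0 genes passed the adjusted test in each case. Against ZT4 alone 0 genes passed and 364 (2.81%) had an unadjusted p under 0.05. Against ZT0 alone, an alternative added after seeing the data, 1 gene passed, the adrenergic receptor gene Adra1a, at 0.20 at ZT12 and -0.79 at ZT0. No gene was therefore specific to ZT12 by the rule used, a call at ZT12 plus a called difference in the same direction. The median error of the difference was 0.15, at which a gene standing alone would need a difference of 0.69 to pass. Genes with a smaller error would need less, and genes with a larger error more.

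Some genes with small p-values of the difference are described, although the rule for naming genes does not reach them. Trim63 had the smallest p, Asb2 the next and Dtwd1 the third, and the others were picked after their values were seen. Trim63, which encodes the muscle ubiquitin ligase MuRF1, stood at -0.30 ± 0.10 at ZT12 and at 0.17, 0.22, 0.05, 0.23 and 0.10 at ZT0, ZT4, ZT8, ZT16 and ZT20. ZT12 was its only negative ZT, with a difference of -0.45 ± 0.11 (adjusted p = 0.311). Asb2, a substrate receptor of another ubiquitin ligase in muscle, was called at ZT12 alone (-0.61 ± 0.14, adjusted p = 0.000957). It lay between -0.08 and 0.16 at the other ZT, a difference of -0.60 ± 0.15 (adjusted p = 0.311). Dtwd1 stood at 0.38 ± 0.12 at ZT12 (adjusted p = 0.0512) and between -0.39 and 0.03 elsewhere, a difference of 0.51 ± 0.13 (adjusted p = 0.409). Irf2bp2, Fam63a, Gatsl3 and Fsd1l came next, with an adjusted p of 0.855 each. Nrip1 stood between -0.29 and 0.33 at the other ZT, a difference of 0.60 ± 0.19 (adjusted p = 0.855). Tnik, a kinase of the Wnt pathway, differed by 0.45 ± 0.14 and Rasa4, a Ras GTPase activator, by -0.44 ± 0.14 (adjusted p = 0.855 and 0.855). Asb2, Nrip1 and Tnik were not called at ZT12 once the trend on length and GC content was removed (adjusted p = 0.0668, 0.0517 and 0.0802).

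At ZT12 alone, 100 genes were called, 62 positive and 38 negative. Their fold changes were modest, with 10 of a size of at least 1. The positive 62 had a median of 0.44 at ZT12 and 0.09 to 0.25 at the other ZT. The negative 38 had a median of -0.52 and -0.10 to -0.28, with ZT4 nearest to ZT12 in both. Of the 100, 59 had 1 sign in all 6 tables. Crim1, a regulator of growth factor signalling named here after its values were seen, had the smallest p among those with a log2 CPM of at least 0. It stood at 0.62 ± 0.13 (adjusted p = 0.000493) and between 0.04 and 0.29 elsewhere, and its difference of 0.45 ± 0.15 did not pass (adjusted p = 0.855). A call at 1 ZT and none at another is thus not shown to be a difference between them for any of the 100.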

How the data were processed

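RNA of mouse muscle was sequenced from stranded poly-A libraries, per the labels' protocols. Per the submitters' processing notes the tools were STAR, Trimmomatic, DESeq2, MultiQC, bcl2fastq (2.20.0.422) and R (4.1). Which tool made the PER2 comparisons was not settled from these notes. Those notes list 2 builds, mm9 and GRCm39, without saying what each was for. How reads were counted, with or without strand, and which low genes were dropped is not given in the sources used here. The 6 PER2 tables each hold 1 comparison between genotypes, made by the authors for 1 ZT. Per the file headers they hold a log2 fold change and a mean log2 CPM, which is the same in all 6 tables. The likelihood ratio score, the p-value and the adjusted p are likewise as the authors deposited them. Recomputing the Benjamini-Hochberg adjustment moved no adjusted p by more than 1.33e-14. Because the tables hold comparisons and no counts, the tests for deposited comparisons were used. Depth is unknown and no counting interval is given.

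A gene was called at a deposited adjusted p under 0.05. The error of a fold change was its size over the root of the likelihood ratio score. Errors of different ZT were treated as independent, which was not checked. ZT12 was set against the inverse-variance weighted mean of the other 5 ZT by a two-sided normal test, adjusted over all 12952 genes. A run on simulated data drew its noise from the same derived errors, so it could not check those errors. In the data the robust spread of z was 1.15 against the other 5 ZT and 0.82 against ZT4. The trend was a cubic fit on log2 transcript length and GC content (longest GENCODE M21 transcript, 12860 genes, 99.3%), removed with the error kept. By symbol, 12644 genes matched RefSeq, used for names and promoters (GRCm38.p6), since the build of the files is not certain. Alternatives covered the threshold, the level filter, the trend, centring, the weights and each other ZT left out. Software was SciPy 1.17.1, NumPy 2.4.6 and pandas 2.3.3 under Python 3.11.15, with matplotlib 3.10.9 for plots.

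The rule for named genes takes both clock lists, the 12 most positive and 12 most negative calls with a log2 CPM of at least 0 and no predicted name, up to 4 called members of each of 42 lists (else the member with the smallest p), and examples of genes called at all 6 ZT. Members, lists and tests were chosen with earlier results of these data known. Some results are not reported here.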

Additional observations from a re-analysis of the deposited data

How the results depend on the processing

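The number of genes called at ZT12 was 432 (258 positive, 174 negative). It was 203 (137 and 66) at an adjusted p under 0.01, 679 (394 and 285) under 0.1 and 243 (141 and 102) with a size of at least 0.5 required as well, by the construction of those settings. With the trend on length and GC content removed it was 266 (183 and 83). A log2 CPM of at least 0 gave 420 and of at least 2 gave 393, and centring on the median gave 503. Of the 177 named genes with a length, 18 lost their ZT12 call with the trend removed and 2 gained one, and with centring 4 of 178 lost it and 3 gained one. No named gene that was called in either setting changed sign. The number that differ between ZT12 and the other 5 ZT was 0, and stayed 0 with a plain mean, without each other ZT in turn, with the signed root of the score, with the trend removed, with centring, with the level filter and with the robust spread of z. Against single ZT, chosen after seeing the data, it was 1 for ZT0 and 0 for ZT8, ZT16 and ZT20. The 12 genes nearest to passing kept the sign of their difference in each setting run on it. Leaving out a replicate and a count test were not run. No paired analysis was possible because the tables hold comparisons with no values per library. Depth limits are unknown, and precision is that of the derived error.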

Other observations

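Some genes outside the report's lists, named here after their values were seen, were called at ZT12 and at no other ZT. Mat2a, which makes S-adenosylmethionine, the substrate of the Amd1 enzyme, had a deposited log2 fold change of 0.42 ± 0.10 (adjusted p = 0.00433) and stood between 0.05 and 0.31 at the other ZT. The retinoic acid receptor gene Rarb stood at 0.66 ± 0.15 (adjusted p = 0.00206), between -0.05 and 0.44 elsewhere. Dapk2, a calcium-regulated kinase gene, stood at 0.62 ± 0.15 (adjusted p = 0.00312), and Ctnna3, an alpha-catenin of muscle cell contacts, at 1.20 ± 0.28 (adjusted p = 0.00159). On the negative side Nme4, a mitochondrial nucleoside diphosphate kinase gene, stood at -1.02 ± 0.32 (adjusted p = 0.0477), with -0.32 to 0.04 elsewhere. With the trend on length and GC content removed Nme4 was not called (adjusted p = 0.28), while the other 4 were. None of these 5 passed the test of the difference from the other 5 ZT, with adjusted p of 0.855, 0.855, 0.855, 0.855 and 0.855.

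Azin1, which frees the Odc1 enzyme from its inhibitor, had a deposited log2 fold change of 0.41 ± 0.13 at ZT12, just short of a call (adjusted p = 0.0571), and was called once fold changes were centred on their median. With the trend on length and GC content removed it stood at 0.28 (adjusted p = 0.408). Among the immediate early genes, Nr4a3 ranged from -0.64 at ZT16 to 3.15 at ZT8, with -0.52 ± 0.69 at ZT12.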
